A study of Homo sapiens with 24 samples.

Results

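Cytosolic ribosomal proteins are the structural proteins of the small and large ribosomal subunits. Their genes were taken by name: symbols starting RPL or RPS followed by digits and at most one of the letters A, X or L, together with RPLP0, RPLP1, RPLP2 and RPSA, and without RPS27A. This gave 81 of the 18915 genes in the count matrix, 49 of the large and 32 of the small subunit. The data came from HepG2 cells, an established human hepatoma line, treated for 10 hours and measured by QuantSeq, an RNA-seq method that reads the 3′ ends of polyadenylated transcripts. The 6 groups of 4 biological replicates were the DMSO vehicle, ISRIB at 50 nM, nelfinavir at 20 µM, bortezomib at 50 nM, bortezomib with nelfinavir, and bortezomib with ISRIB, each agent of a pair at the same dose as alone. Bortezomib inhibits the proteasome, nelfinavir is an HIV protease inhibitor that raises phosphorylation of eIF2α, and ISRIB acts on eIF2B, so that translation goes on when eIF2α is phosphorylated. All groups were from 1 cell line at 1 time.

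Each ribosome holds a single copy of most of these proteins, and cells make them in balanced amounts, with unassembled ribosomal proteins degraded by the proteasome. Their transcripts are among the most abundant in growing cells and carry a terminal oligopyrimidine (TOP) start, a C followed by a run of C and T bases, through which the mTORC1 kinase and LARP1 control their translation and stability. Transcript levels, not translation or protein, were measured here.

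The annotated starts of 9 members described below are shown: 7 with this start, which most members carry, and RPS27L and RPS26, which lack it within 5 bases. Each sequence runs from 40 bases before to 15 bases from the annotated start in RefSeq (GRCh38.p14), 5′ to 3′ on the strand of the gene, with the start base and the run of C and T that follows it in capitals. For RPS27L and RPS26 only the start base, a G, is in capitals.
RPS13 (chr11:17077653-17077707, minus strand): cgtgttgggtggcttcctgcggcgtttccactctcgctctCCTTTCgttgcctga
RPS19 (chr19:41860215-41860269, plus strand): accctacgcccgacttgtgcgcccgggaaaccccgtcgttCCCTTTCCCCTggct
RPL37A (chr2:216498804-216498858, plus strand): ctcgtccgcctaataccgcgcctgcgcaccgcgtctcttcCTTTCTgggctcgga
RPL13A (chr19:49487568-49487622, plus strand): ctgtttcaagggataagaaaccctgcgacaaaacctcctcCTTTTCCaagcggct
RPS6 (chr9:19380222-19380276, minus strand): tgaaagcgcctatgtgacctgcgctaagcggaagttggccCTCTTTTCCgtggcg
RPS24 (chr10:78033823-78033877, plus strand): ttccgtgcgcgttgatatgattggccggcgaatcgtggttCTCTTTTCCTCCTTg
RPS27 (chr1:153990722-153990776, plus strand): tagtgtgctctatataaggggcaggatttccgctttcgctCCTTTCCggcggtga
RPS27L (chr15:63157463-63157517, minus strand): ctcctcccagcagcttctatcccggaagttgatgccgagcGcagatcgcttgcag
RPS26 (chr12:56041878-56041932, plus strand): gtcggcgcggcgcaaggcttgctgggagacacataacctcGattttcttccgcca

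Starts were matched by symbol for 63 members. A C followed by at least 4 bases that are each C or T stood exactly at an annotated start of 45 of them (71.4%), against 5.14% of the 27305 genes in the RefSeq table. Allowing the motif to begin up to 5 bases to either side, 52 members (82.5%) and 25.2% of all genes held it, read on the strand of the gene only. The members without it in this wider window were RPL10L, RPL15, RPL17, RPL27, RPL6, RPL9, RPS15, RPS26, RPS27L, RPS29 and RPS4X. A match is a description of the letters at an annotated start, and the start used in HepG2 cells was not analysed here.

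The 24 libraries held 5154533 to 6943164 counts. A gene was tested when it passed a filter on low counts over the 6 groups, which 12685 genes did, among them 78 members, 46 of the large and 32 of the small subunit. RPL3L, RPL10L and RPL39L, paralogs known from muscle or testis, did not pass: they had 4, 2 and 7 counts over all 24 libraries and 0 in DMSO, where a count of 0 allows up to 0.0950 CPM (counts scaled to a common library total; 3 counts over the 4 libraries, counting error only). Values below are CPM after TMM scaling, a factor per library that sets the bulk of genes to no change, and are listed in the order of replicates 1 to 4. An adjusted p is from edgeR, corrected over all genes tested, and a gene was called at 0.05.

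Several libraries stood apart within their groups. Bortezomib replicate 4 had a summed CPM of all members of 88909, where replicates 1 to 3 had 77687, 77763 and 77728. A different contrast ran through other groups: with group means taken out, the first component over 6441 well-counted genes held 34.3% of the variance within groups, and bortezomib with ISRIB replicate 3 (score -21.2), bortezomib with nelfinavir replicates 3 and 4 (-17.4 and -12.4), nelfinavir replicate 3 (-8.31) and ISRIB replicate 3 (-6.51) lay at one end. The other libraries had scores from -3.34 to 16.1. Highest among them were bortezomib with nelfinavir replicates 2 and 1 (16.1 and 13.8) and bortezomib with ISRIB replicate 4 (11.1). Among the members, RPS25, RPL23A, RPL30 and RPL34 weighed most on that component. RPL23A had 1580, 1804, 855 and 917 CPM in bortezomib with nelfinavir. Its values under bortezomib plus ISRIB were 1601, 1531, 866 and 1431 CPM. RPS25 had 511, 504, 282 and 249 CPM in bortezomib with nelfinavir. In each case the low libraries were those at the negative end. The labels name no batch that these libraries share, and the part of this contrast in the results was not tested. Results are also given with the 5 libraries at the negative end left out, an alternative chosen after seeing the data. That alternative keeps only replicates 1 and 2 of bortezomib with nelfinavir, so this group is then read from libraries at the positive end alone.

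In DMSO, 24 of the tested members lay above 1000 CPM, 49 between 100 and 1000 and 5 below 100, with a median of 663 CPM. The highest were RPL37A (4034 ± 171 CPM, SD, n = 4), RPS29, RPS12, RPS6 (2326 ± 141) and RPS24 (2135 ± 25.3), which together made up 22.4% of the summed CPM of members in DMSO. Tags from 3′ ends do not scale with gene length, so these levels need no correction for length, but they depend on how well each 3′ end is captured and mapped, and are compared between groups rather than between genes. Among the lowest was RPL17, at 1.00 CPM in DMSO, and its folds are not described. Its last 200 bases had 7 near copies elsewhere in GRCh37 (at least 80 bases at 97% identity or more). Over all tested members, 31 had at least 1 such copy, with a median of 459 CPM in DMSO, and 46 had none, with a median of 903 CPM. Another annotated gene, RPL17-C18orf32, also lay over the end of RPL17 on the same strand, and 4 tested members had such a gene. The part of near copies and of shared ends in these levels was not tested. The order of the 78 members by level was close to that of DMSO in every group, with Spearman's rho across genes from 0.974 (bortezomib with nelfinavir) to 0.997 (ISRIB). Genes are not independent replicates and share their libraries.

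Members together took 7.81%, 7.63%, 7.98% and 8.17% of all counts in the DMSO libraries. They took 9.18%, 8.81%, 9.12% and 9.17% in nelfinavir. In bortezomib the share was 6.75%, 6.69%, 6.58% and 7.51%. The nelfinavir libraries all lay above the DMSO libraries and the bortezomib libraries all lay below them. The mean was 8.34% ± 0.362 (SD, n = 4) in ISRIB, 6.11% ± 0.347 where ISRIB was added to bortezomib and 7.72% ± 0.310 where nelfinavir was. Mitochondrially encoded genes took 33.8% of the counts in bortezomib (range 32.8% to 35.5%) and 21.5% in DMSO (20.0% to 23.1%), and among the remaining counts the members took 10.4% ± 0.575 in bortezomib and 10.1% ± 0.273 in DMSO, with overlapping ranges. After TMM scaling the order turned: the summed CPM of members was 65383 ± 2135 in DMSO, 76445 ± 2050 in nelfinavir and 80522 ± 5591 in bortezomib. The direction of the summed level in bortezomib thus depended on the scaling, and since the samples are bulk RNA, fewer cells of a type and less RNA per cell cannot be told apart.

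**Figure D1:**
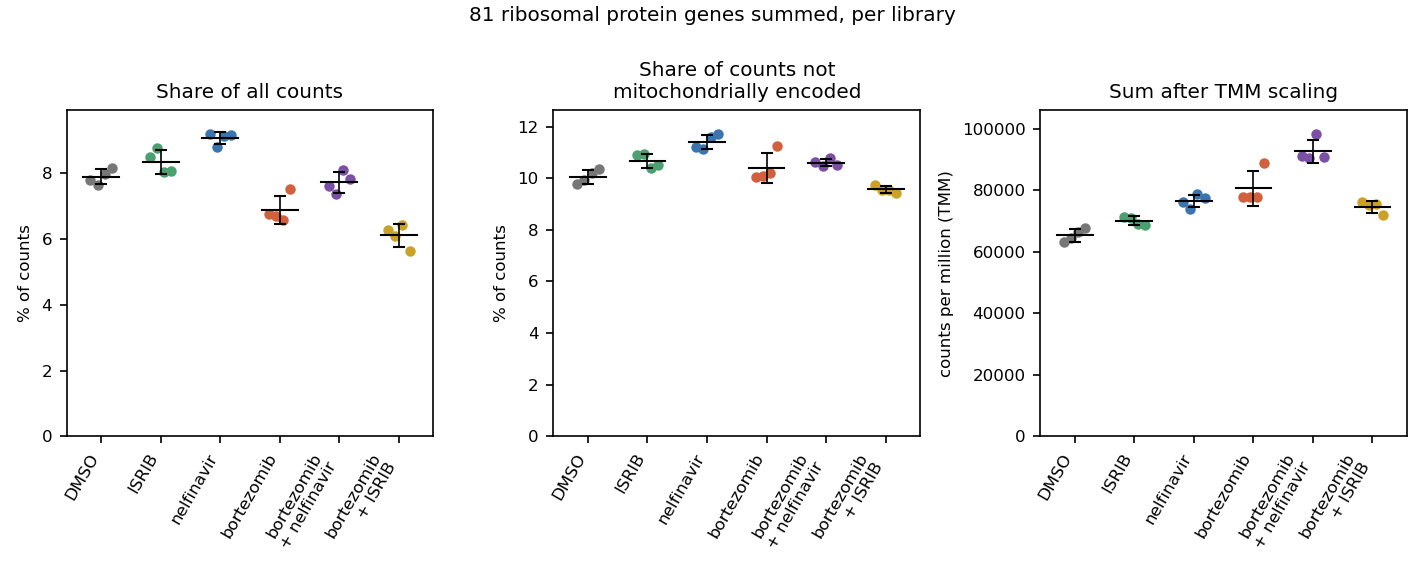
Summed level of the 81 genes in each library (points), with the mean and SD of each group (n = 4), as a percent of all counts, a percent of counts that are not mitochondrially encoded, and CPM after TMM scaling. Bortezomib lies below DMSO on the first scale (6.88% and 7.90%), overlaps it on the second and lies above it on the third (80522 and 65383 CPM), while nelfinavir is above DMSO on all 3.

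Bortezomib against DMSO asks what proteasome inhibition does to these transcripts. With TMM scaling, 44 of 78 members rose (background 27.6% of all tested genes) and 3 fell (background 25.8%), with a median log2 fold change of 0.26 against 0.0017 over all tested genes, but with library totals alone the direction of the family flips, to 4 higher, 43 lower and a median of -0.24 (11.7% and 49.4% of all genes were higher and lower there, against 5.13% and 55.1% of members). That scaling moved the median of all tested genes by -0.50, and the members' median relative to it was 0.26 under both. Calls were spread over the subunits, with 26 higher and 1 lower of 46 in the large and 18 higher and 2 lower of 32 in the small. Without bortezomib replicate 4, 27 members were called higher and 5 lower, with a median of 0.16. Shares of all tested genes called are not given here for this and other refits without a single library. Those counts therefore stand without a background. With the 5 libraries named above left out, 46 were called higher and 6 lower (backgrounds 27.1% and 29.3%).

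RPS19, a small subunit protein often altered in Diamond-Blackfan anaemia, had 1916, 1998, 1901 and 1981 CPM in DMSO and 3325, 3052, 2932 and 3622 CPM in bortezomib. RPL37A, a large subunit protein and the most abundant member in DMSO, had 3810, 4030, 4074 and 4222 CPM in DMSO and 6956, 7116, 7088 and 8347 CPM in bortezomib. RPS13 of the small subunit had 467, 468, 484 and 505 CPM in DMSO and 774, 724, 790 and 860 CPM in bortezomib. For each of these genes all 4 bortezomib libraries lay above all 4 DMSO libraries. The log2 fold changes were 0.73 for RPS19 (adjusted p = 2.83e-10), 0.87 for RPL37A (adjusted p = 5.29e-10) and 0.71 for RPS13 (adjusted p = 7.32e-10), and no scaling or left-out library ended these calls. RPL10A, a protein of the L1 stalk, rose by 0.56 (adjusted p = 7.56e-07), a call that ended with library totals alone (adjusted p = 0.560).

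RPS27L and RPS26 went the other way under bortezomib. RPS27L, a paralog of RPS27 known as a p53 target, had 407, 366, 312 and 331 CPM in DMSO and 192, 187, 153 and 155 CPM in bortezomib. RPS26, which sits at the mRNA exit of the small subunit, had 74.0, 69.8, 70.3 and 74.3 CPM in DMSO and 37.6, 39.0, 38.2 and 46.5 CPM in bortezomib. In both genes every bortezomib library lay below every DMSO library. RPS27L fell by 1.05 on the log2 scale (adjusted p = 5.31e-10) and RPS26 fell by 0.84 (adjusted p = 2.64e-06). The remaining member called lower was RPL35, near the exit tunnel, which fell by 0.27 (adjusted p = 0.00589). RPS27 itself rose by 0.38 (adjusted p = 0.00574), a call that ended without bortezomib replicate 4 (adjusted p = 0.0707) and whose direction flipped with library totals alone (-0.12).

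Nelfinavir against DMSO asks about the agent alone. It raised 37 of 78 members (background 10.4%) and lowered 2 (background 8.84%), with a median of 0.22 against 0.01 over all tested genes, and the direction of the family was the same under every scaling. By subunit, 20 of 46 large and 17 of 32 small subunit genes were called higher. The count changed with single libraries: it was 24 without DMSO replicate 1, 19 without DMSO replicate 2 and 23 without nelfinavir replicate 3. The median stayed between 0.19 and 0.24. Without the share of all genes called in those refits, whether the fall in the count is particular to members was not tested. With the 5 libraries left out it was 45 (with 1433 of all 13032 genes called higher).

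RPL13A had 1281, 1359, 1480 and 1477 CPM in DMSO and 1813, 1682, 1997 and 2005 CPM in nelfinavir. RPL3, close to the peptidyl transferase centre, had 277, 302, 341 and 337 CPM in DMSO and 387, 415, 443 and 458 CPM in nelfinavir. RPL12, at the base of the stalk that binds elongation factors, had 438, 455, 483 and 487 CPM in DMSO and 609, 566, 614 and 625 CPM in nelfinavir. The nelfinavir libraries lay above the DMSO libraries without overlap for all 3 genes. The log2 fold changes were 0.42 for RPL13A (adjusted p = 0.000201), 0.44 for RPL3 (adjusted p = 0.000259) and 0.37 for RPL12 (adjusted p = 0.000336). The genes called lower were RPS27L and RPS26, as in bortezomib; these comparisons share the DMSO libraries. RPS27L had 282, 300, 256 and 217 CPM in nelfinavir and RPS26 had 47.8, 47.1, 53.5 and 53.4 CPM, all below the DMSO libraries. RPS27L fell by 0.42 (adjusted p = 0.00311) and RPS26 fell by 0.52 (adjusted p = 0.00337).

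ISRIB against DMSO gave 0 members called higher (background 0%) and 0 lower (background 0%) by edgeR. At an unadjusted p under 0.05 there were 9 members of 78 (background 5.54%), and DESeq2 also called 0 members (backgrounds 0.00788% higher and 0.158% lower). The median of members was 0.10, with 67 of 78 above 0, against 0.0043 over all tested genes. The summed CPM of members was 71364, 71080, 68911 and 68524 in ISRIB and 63006, 64311, 66425 and 67790 in DMSO. These libraries did not overlap on that scale. As a share of all counts they did, with 8.49%, 8.78%, 8.03% and 8.06% in ISRIB and 7.81%, 7.63%, 7.98% and 8.17% in DMSO. Among counts that are not mitochondrially encoded, the lowest ISRIB library (10.38%) lay just above the highest DMSO library (10.36%).

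**Figure D2:**
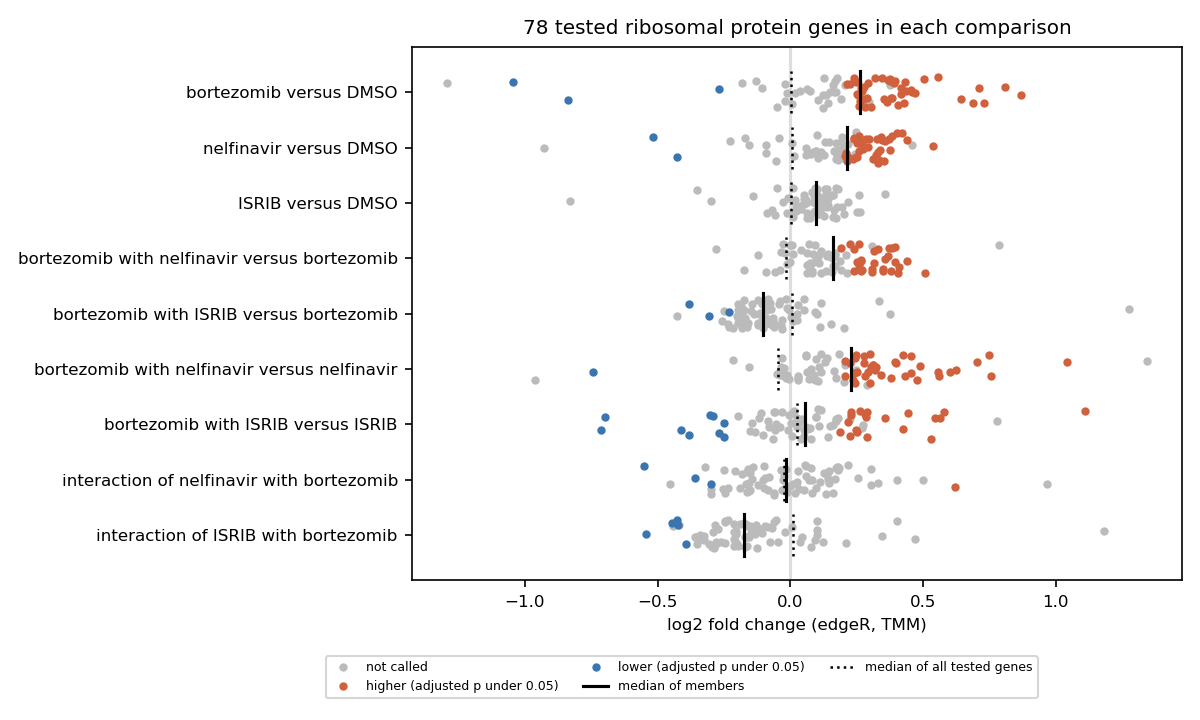
log2 fold change (edgeR, TMM) of the 78 tested members in each of 9 comparisons, with the median of members (solid line) and of all tested genes (dotted line). Members lie mostly to the right for bortezomib (44 called higher) and nelfinavir (37), but with library totals alone the medians of the 3 comparisons that add bortezomib turn negative.

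Bortezomib with nelfinavir was compared with bortezomib alone. After TMM scaling, 29 of 78 rose (background 15.6%) and 0 fell (background 13.4%), by edgeR and by DESeq2, which called 32 higher and 0 lower (backgrounds 16.9% and 14.2%). With only the groups compared, 18 were called higher (23.7%, against 11.4% of all genes). At an unadjusted p under 0.05, in either direction, there were 35 members of 78 (background 39.5%). The median was 0.16 against -0.02 over all tested genes, positive under every scaling, and it was 0.24 with 40 called without bortezomib replicate 4, 0.23 without bortezomib with nelfinavir replicate 1 and 0.22 without its replicate 4. With the 5 libraries left out the count called higher was also 29 (background 14.1%), with a median of 0.18, but the genes were not all the same. RPL5, RPS6, RPLP2 and RPL13A lost their calls there. As a share of all counts members took 7.72% in the combination and 6.88% in bortezomib, while mitochondrially encoded genes took 27.2% and 33.8%; among the remaining counts the members took 10.6% and 10.4%, with overlapping ranges. The part of the mitochondrially encoded counts in these results was not tested. RPS24, another gene altered in Diamond-Blackfan anaemia, had 2207, 2187, 2120 and 2465 CPM in bortezomib and 2779, 2797, 3333 and 2902 CPM with nelfinavir added. RPS4X of the small subunit had 968, 979, 928 and 1112 CPM in bortezomib and 1231, 1232, 1597 and 1353 CPM in the combination. All combination libraries lay above the bortezomib libraries in both genes. The log2 fold changes were 0.40 for RPS24 (adjusted p = 0.000353) and 0.44 for RPS4X (adjusted p = 0.000488).

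Bortezomib with ISRIB was also compared with bortezomib alone. Mitochondrially encoded genes took 36.1% of the counts in this combination (range 32.6% to 40.2%), 33.8% in bortezomib and 21.9% in ISRIB. Their part in the results was not tested. Of 78 members, 0 were called higher (background 6.91%) and 3 lower (background 5.34%) by edgeR, with 19 at an unadjusted p under 0.05 (background 26.3%), and DESeq2 called 0 higher and 7 lower (backgrounds 7.75% and 7.02%). The share called lower changed sides of the background with the method: it was 3.85% against 5.34% by edgeR, but 8.97% against 7.02% by DESeq2, 20.5% against 7.53% with library totals alone and 15.4% against 7.47% with the 5 libraries left out. The median was -0.10 against 0.01 over all tested genes, negative under every scaling, but it was -0.05 without bortezomib replicate 4, within the spread between replicates (0.06). The count of lower calls rested on few libraries, with 5 without bortezomib replicate 1, 1 without bortezomib replicate 4 and 1 without bortezomib with ISRIB replicate 3. It was 12, with 2 higher, when the 5 libraries were left out. RPL10A had 1135, 1147, 1137 and 1401 CPM in bortezomib and 911, 902, 964 and 924 CPM with ISRIB added. All combination libraries were below the bortezomib libraries, and RPL10A fell by 0.38 (adjusted p = 0.00159), with no alternative ending the call. RPS15A (-0.30, adjusted p = 0.0176) lost its call without bortezomib replicate 4 or bortezomib with ISRIB replicate 3, and RPL12 (-0.23, adjusted p = 0.0387) lost it on leaving out any one of 6 libraries.

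Bortezomib was also compared in the presence of each agent. With nelfinavir in both groups, 39 members rose (background 28.7%) and 1 fell (background 28.4%), with a median of 0.23, which became 0.16 without bortezomib with nelfinavir replicate 3 and 0.15 with the 5 libraries left out, and flipped to -0.28 with library totals alone. The counts moved as well, to 23 higher and 2 lower with upper-quartile factors (where 3165 of all 12685 genes were called higher) and to 4 higher and 51 lower with library totals alone (backgrounds 12.5% and 51.4%), which moved the median of all tested genes by -0.51. With ISRIB in both groups, 20 rose (background 29.1%) and 9 fell (background 25.6%), with a median of 0.06 against 0.02 over all tested genes. The sign of this median flipped with RLE factors (-0.0038), upper-quartile factors (-0.04), TMM without mitochondrially encoded genes and members (-0.0065), DESeq2 (-0.0038), no filter (-0.02) and library totals alone (-0.48), without bortezomib with ISRIB replicate 1 (-0.0024) or 3 (-0.01) and with the 5 libraries left out (-0.03). With library totals alone, which moved the median of all tested genes by -0.54, 1 was called higher and 65 lower (backgrounds 12.1% and 50.4%), and with upper-quartile factors 9 and 11 (backgrounds 25.3% and 29.1%). The count called higher was 11 without bortezomib with ISRIB replicate 1 and 10 without its replicate 2. RPL39, a small protein lining the exit tunnel, had 99.4, 98.0, 78.9 and 78.4 CPM in ISRIB and 223, 228, 133 and 182 CPM in bortezomib with ISRIB. The groups did not overlap, and RPL39 rose by 1.11 (adjusted p = 2.84e-07). In nelfinavir it had 119, 135, 86.6 and 84.1 CPM and in bortezomib with nelfinavir 235, 274, 199 and 169 CPM, again without overlap, and rose by 1.04 (adjusted p = 6.62e-07). The member called lower with nelfinavir in both groups was RPS27L (-0.74). With ISRIB in both groups those called lower included RPS26 (-0.71), RPS27L (-0.70), RPL36 (-0.41), RPL35 (-0.38) and RPL7A (-0.25). No other setting and no left-out library ended these calls.

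The interaction terms test whether the effect of bortezomib differed when a second agent was present; each contrasts 4 groups, within the fit of all 24 libraries. For nelfinavir, 1 member was called higher (background 9.74%) and 3 lower (background 10.0%), a share below the background. RPS26 was the higher one, with an interaction of 0.62 (adjusted p = 0.0175): bortezomib with nelfinavir had 50.9, 48.8, 35.4 and 38.8 CPM, which overlapped both bortezomib and nelfinavir alone. The call was kept without any single library, and with the 5 libraries left out the interaction was 0.86 (adjusted p = 4.52e-05). The lower calls, RPL12, RPS18 and RPL10, were each lost on leaving out any one of at least 11 libraries, and over left-out libraries the counts ranged from 1 to 4 higher and from 0 to 3 lower. For ISRIB, 0 were called higher (background 2.93%) and 5 lower (background 1.89%), with 26 at an unadjusted p under 0.05 (background 18.3%), 0 higher and 15 lower by DESeq2 (backgrounds 3.84% and 3.44%), and a median of -0.17 against 0.01 over all tested genes. RPL10A led with -0.54 (adjusted p = 0.00316), and with the 5 libraries left out it was -0.59 and 15 members were called lower (background 3.61%). RPS15A, RPL36, RPS7 and RPS3A, the other calls, were each lost on leaving out any one of at least 6 libraries, and the count was 1 without DMSO replicate 1, DMSO replicate 2, ISRIB replicate 1 or bortezomib replicate 4.

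**Figure D3:**
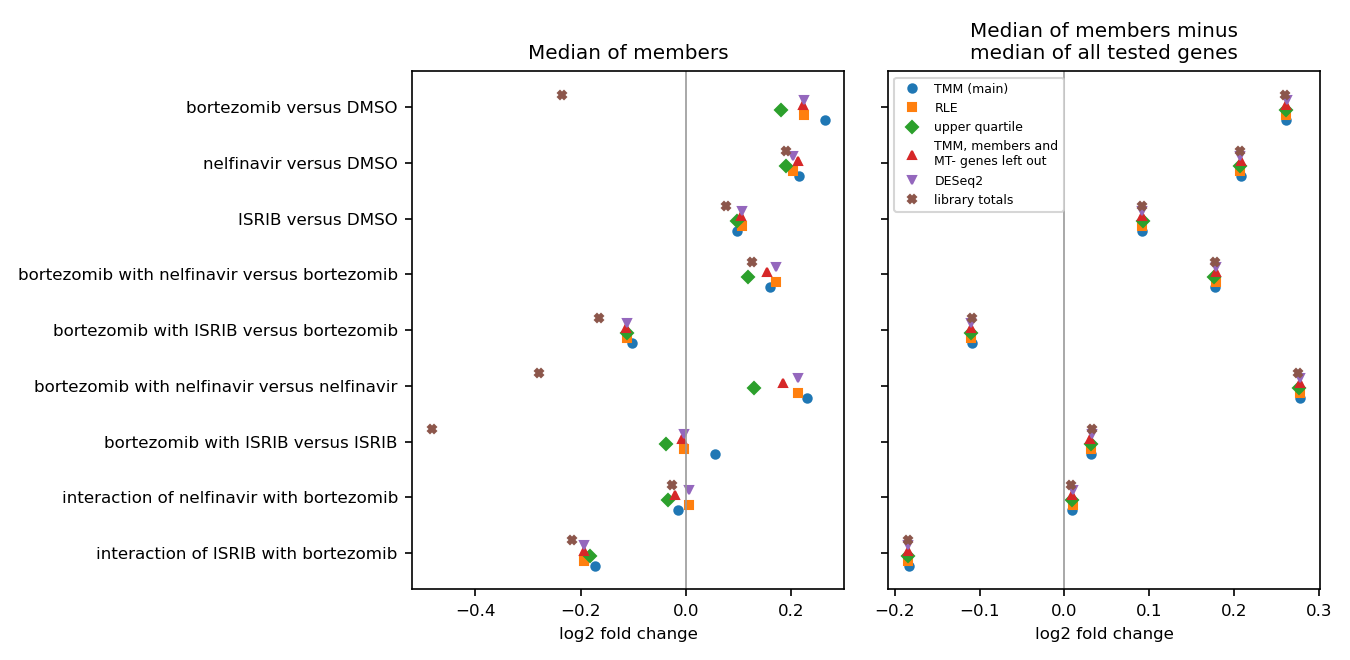
Median log2 fold change of the tested members in each comparison under 6 scalings and tools, as it stands (left) and minus the median of all tested genes (right). On the left, library totals alone turn the 3 comparisons that add bortezomib negative (-0.24 for bortezomib against DMSO); on the right the scalings fall together (0.26 for that comparison under each).

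Members of fixed roles were read singly, and no test was made between them. Under bortezomib RPL10, which joins the large subunit late, rose by 0.69 (adjusted p = 0.000121), RPL39 by 0.64 (adjusted p = 0.000651) and RPL3 by 0.50 (adjusted p = 8.19e-06), and each call ended with library totals alone, whereas the stalk protein RPLP0 at 0.16 (adjusted p = 0.0990) and RPL41, a very short protein, at 0.26 (adjusted p = 0.0625) were not called. The stalk proteins RPLP1 and RPLP2, which recruit elongation factors, rose by 0.29 (adjusted p = 0.000747) and 0.25 (adjusted p = 0.00849) under bortezomib, and flipped to -0.21 and -0.25 with library totals alone. RPL11, which joins the 5S RNA particle and binds MDM2 when free, rose by 0.24 (adjusted p = 0.0096), flipping to -0.26. RPS6, the S6 kinase substrate, had 2149, 2277, 2449 and 2430 CPM in DMSO and 2652, 2655, 2567 and 2912 CPM in bortezomib. Its groups did not overlap, and it rose by 0.21 (adjusted p = 0.0170), which flipped to -0.28 with library totals alone. The RPLP2, RPL11 and RPS6 calls were each lost on leaving out any one of at least 4 libraries, bortezomib replicate 4 among them. All 3 calls also ended with no filter and with upper-quartile factors (edgeR adjusted p = 0.0831, 0.0955 and 0.152). For RPS6 the call ended too with RLE factors (0.0589) and with TMM without mitochondrially encoded genes and members (0.0557).

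**Figure D4:**
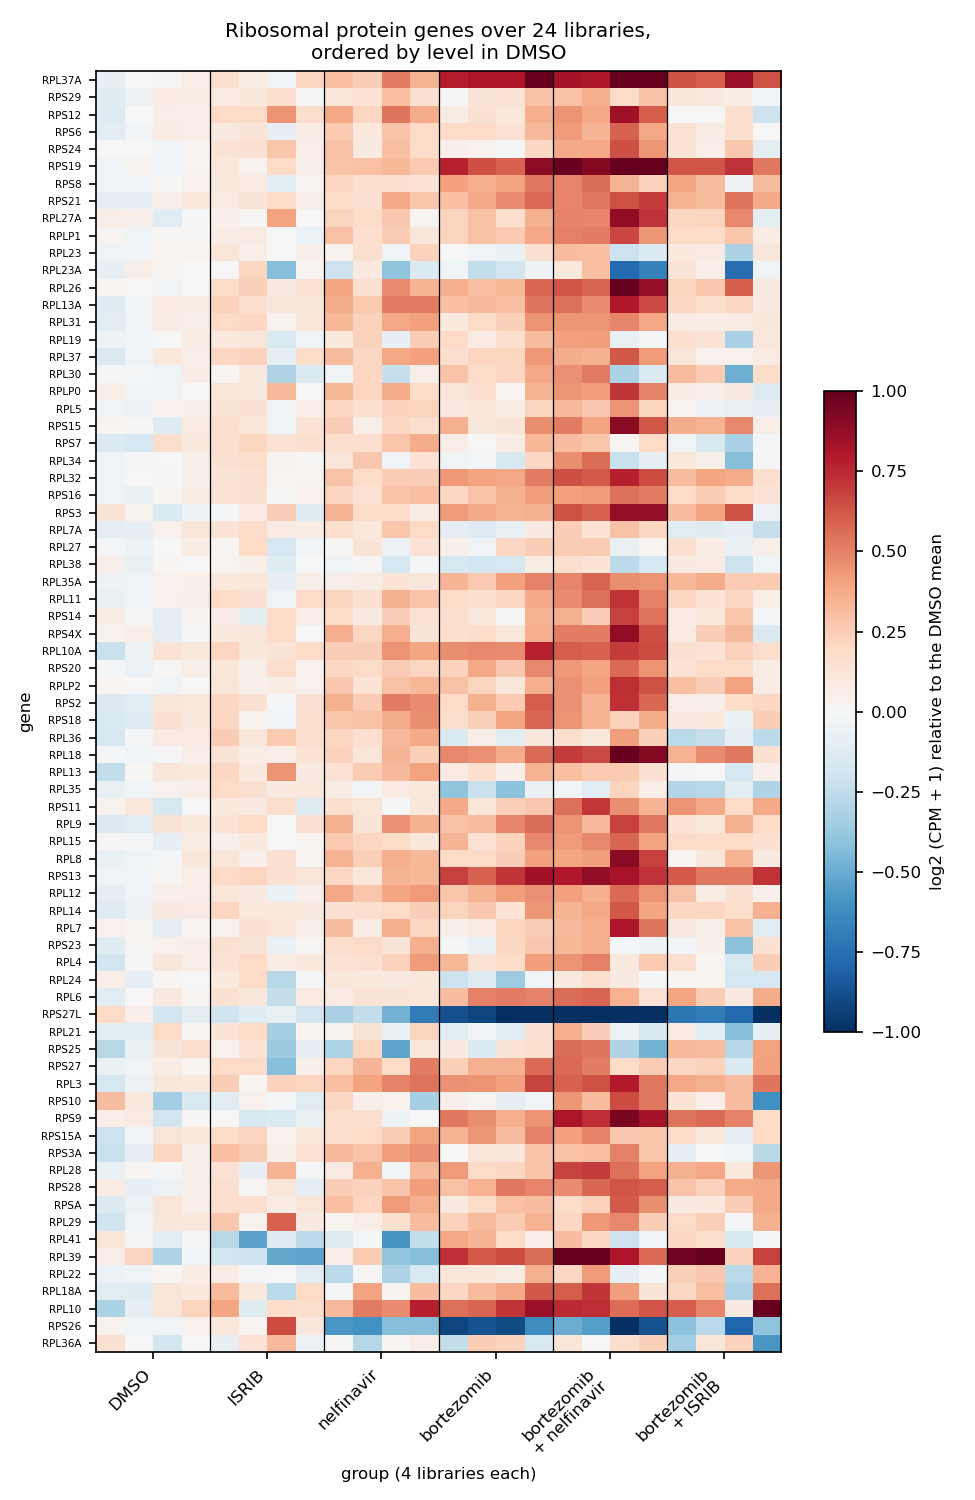
log2 of CPM + 1 relative to the DMSO mean for 74 of the members above 10 CPM in DMSO, ordered by level, over 24 libraries in the order of replicates 1 to 4 within each group. Bortezomib replicate 4 is higher over most genes, and RPL23A, RPS25 and RPL34 are lower in bortezomib with nelfinavir replicates 3 and 4 (RPL23A 855 and 917 CPM) than in replicates 1 and 2 (1580 and 1804); with library totals alone the median of members in bortezomib against DMSO turns to -0.24.

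Members with the pyrimidine start within 5 bases had a median log2 fold change of 0.26 under bortezomib (52 genes, 31 higher, 1 lower), and those without it 0.24 (10 genes, 4 higher, 2 lower). Under nelfinavir the medians were 0.24 (28 higher, 0 lower) and 0.14 (2 higher, 2 lower). Of the genes called lower, RPS27L and RPS26 lack the motif within 5 bases and RPL35 has it. RPL6 (0.46), RPL9 (0.42), RPL15 (0.30) and RPS15 (0.27), called higher under bortezomib, also lack it there. In RPS26 a C followed by 4 bases of C or T (cttcc) begins just past that window, so its class rests on the window chosen. Over all tested genes, 27.6% were called higher and 25.8% lower under bortezomib, and 10.4% and 8.84% under nelfinavir. With library totals alone bortezomib gave 4 of all members higher and 43 lower (backgrounds 11.7% and 49.4%). No test was made of these splits.

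Related genes outside the rule were read from fixed lists, and no test was made between the sets. Of 17 tested translation genes also known for TOP starts, 10 rose and 0 fell under bortezomib by edgeR (backgrounds 27.6% and 25.8%), with a median of 0.48. With library totals alone 2 rose and 4 fell (backgrounds 11.7% and 49.4%), and the median was -0.01. Under nelfinavir 7 rose and 0 fell (backgrounds 10.4% and 8.84%). TPT1 rose by 0.87 (adjusted p = 5.27e-10) and 0.49 (adjusted p = 9.62e-05), and the elongation factor EEF2 by 0.57 and 0.67, where the bortezomib call for EEF2 ended with library totals alone (adjusted p = 0.525). RPS27A, whose protein is made as a fusion to ubiquitin, rose by 0.45 (adjusted p = 0.000847) under bortezomib, which flipped to -0.05 with library totals alone, and by 0.40 (adjusted p = 0.00748) under nelfinavir. Of 4 paralogs outside the rule, 3 fell under bortezomib (background 25.8%), with log2 fold changes of -0.70 for RPL36AL (adjusted p = 7.07e-08), -0.60 for RPL7L1 (adjusted p = 1.79e-05) and -0.48 for RPL26L1 (adjusted p = 0.00184).

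Of 74 tested mitochondrial ribosomal protein genes, which are encoded in the nucleus, 9 rose and 31 fell under bortezomib (backgrounds 27.6% and 25.8%), with a median of -0.29, or -0.79 with library totals alone, and 1 rose and 10 fell under nelfinavir (backgrounds 10.4% and 8.84%). The 13 mitochondrially encoded genes had a median of 1.18 under bortezomib, 12 of them higher, and 0.69 with library totals alone. Of 57 ribosome biogenesis genes, 21 rose and 12 fell under bortezomib (backgrounds 27.6% and 25.8%), or 4 and 32 with library totals alone (backgrounds 11.7% and 49.4%). Under nelfinavir 2 of them rose and 15 fell (backgrounds 10.4% and 8.84%). RRP12, an export factor, rose by 1.71 (adjusted p = 8.41e-14) under bortezomib, while IMP3 fell by 1.21 (adjusted p = 9.45e-12). Under nelfinavir the nucleolar protein NOP56 fell by 0.74 (adjusted p = 1.97e-08). Of 13 genes of ribosome ubiquitylation and rescue, 6 rose and 0 fell under bortezomib (backgrounds 27.6% and 25.8%). With library totals alone 4 rose and 3 fell (backgrounds 11.7% and 49.4%). Those higher with TMM scaling included PELO, which rescues stalled ribosomes, by 1.30 (adjusted p = 1.06e-08), and the ubiquitin ligase HUWE1 by 0.99 (adjusted p = 5.25e-08). Of 9 genes controlling TOP mRNAs, 6 rose and 1 fell under bortezomib (backgrounds 27.6% and 25.8%), or 3 and 2 with library totals alone (backgrounds 11.7% and 49.4%). Under nelfinavir 3 rose (background 10.4%). Among those higher were the mTORC1 inhibitors DDIT4 (3.46 under bortezomib and 2.96 under nelfinavir) and SESN2 (3.57 and 2.44).

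The cells were checked against 8 liver markers, all tested. Their summed CPM was 11934, 11688, 13012 and 12607 in DMSO and 8839, 8413, 8930 and 8540 in bortezomib, without overlap, and ALB was the most abundant at 3323 CPM in DMSO. The sum was 6924, 6443, 5432 and 6131 in bortezomib with nelfinavir, below every bortezomib library, 8836, 8828, 7861 and 9234 in bortezomib with ISRIB, 11574, 12572, 11394 and 11391 in nelfinavir and 11341, 11888, 11038 and 11170 in ISRIB. With nelfinavir added to bortezomib 5 of the 8 fell against bortezomib (background 13.4%) and 8 against nelfinavir (background 28.4%), with 0 rising in either; with ISRIB added 4 rose and 2 fell against bortezomib (backgrounds 6.91% and 5.34%) and 7 fell against ISRIB (background 25.6%). Under bortezomib 0 rose and 5 fell by edgeR (backgrounds 27.6% and 25.8%); FABP1 fell by 3.01 (adjusted p = 2.34e-20) and TTR fell by 1.49 (adjusted p = 1.02e-12). Of 7 markers of other cell types, values of 3 were used: CD68 at 3.84 CPM, COL3A1 with 2 counts and COL1A1 with 0 counts in DMSO. The part of the markers in the results was not tested.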

How the data were processed

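The authors prepared QuantSeq 3′ libraries from 24 HepG2 samples, trimmed reads with cutadapt 2.8, aligned them to hg19 with STAR and deposited raw counts per gene, which were read as they are. How molecular identifiers and strand were handled was not stated. Libraries held 5154533 to 6943164 counts; intervals and floors cover counting error only. The edgeR package (version 4.0.16, on limma 3.58.1 and R 4.3.3) fitted a quasi-likelihood model with a coefficient per group, TMM factors and no pairing, over genes passing a minimum count of 5 and a minimum total of 25, with Benjamini-Hochberg correction over all tested genes. Alternatives were other scalings, DESeq2 1.42.0, other filters, the groups compared alone, a replicate block and leaving out libraries; 5 libraries were also left out together, chosen after seeing the data. Near copies of transcript ends were searched with BLAST 2.17.0. The fit was also run on simulated data, and the outcome is not reported here. Members and lists were chosen with earlier results of these data known. Named genes were the 5 members with the smallest p in each direction of each comparison, the 5 highest and 5 lowest in DMSO, members of fixed roles and, for lists, the 2 with the smallest p per direction; RPS25, RPL23A, RPL30, RPL34 and RPL26L1 were named after their values were seen. A few results that these rules select are not reported here. Protein sequences were not used here.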

Additional observations from a re-analysis of the deposited data

Results flagged for a closer look

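Within groups of 4, 12 of 102 groups examined held a library far from the others, measured as its gap to the nearest library over the whole range of the group (Dixon's ratio). For independent groups chance gives about 1 in 20, but the same libraries were examined for many quantities. The 12 are therefore not separate findings. In bortezomib, replicate 4 was the high library for the summed CPM of members (0.993), RPL10A (0.953), RPL13A (0.902), RPL37A (0.885), RPL3 (0.848) and RPS26 (0.848). In other groups, the summed CPM in bortezomib with nelfinavir was high in replicate 3 (0.941), the share of counts in nelfinavir low in replicate 2 (0.841), RPL3 low in ISRIB replicate 2 (0.875), RPS26 high in ISRIB replicate 3 (0.879), RPL37A high in bortezomib with ISRIB replicate 3 (0.852) and RPS27L low in its replicate 4 (0.833).

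The effect of bortezomib differed by interaction test with nelfinavir for RPS26 (0.62), RPL10 (-0.55), RPS18 (-0.36) and RPL12 (-0.30), and with ISRIB for RPL10A (-0.54), RPS15A (-0.44), RPS3A (-0.43), RPS7 (-0.42) and RPL36 (-0.39). No explanation was tested.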

How the results depend on the processing

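Of 100 results on genes chosen by the rules for naming, 100 kept their direction and their side of the threshold with the replicate block and with the default filter, 94 with DESeq2, 92 with TMM without mitochondrially encoded genes and members, 87 with RLE factors, 86 with only the groups compared, 85 with the 5 libraries left out together (chosen after seeing the data), 78 with upper-quartile factors, 77 with no filter and 53 with library totals alone. Library totals alone turned the direction of 29, all in the 3 comparisons that add bortezomib, where this scaling moved the median of all tested genes by -0.50, -0.51 and -0.54; these turns follow a shift common to all genes and were not a separate test of the members. The causes were not tested unless the alternative itself shows them (fewer libraries, more genes tested). With library totals alone, bortezomib against DMSO gave 4 members higher, 43 lower and a median of -0.24, with these genes turned: RPL11 -0.26, RPS27 -0.12, RPSA -0.27, RPL35A -0.12, RPS6 -0.28, RPLP2 -0.25, RPS3 -0.12, RPL4 -0.22, RPLP1 -0.21, RPS2 -0.13 and RPL13A -0.13. Bortezomib with nelfinavir against nelfinavir gave 4 higher, 51 lower and -0.28, with RPL11 -0.20, RPL35A -0.11, RPS10 -0.020, RPS6 -0.28, RPS24 -0.26, RPLP2 -0.20, RPL41 -0.20, RPLP0 -0.26, RPLP1 -0.19, RPL13A -0.30 and RPL3 -0.30 turned. Bortezomib with ISRIB against ISRIB gave 1 higher, 65 lower and -0.48, with RPS19 -0.0071, RPL35A -0.29, RPL10 -0.10, RPLP2 -0.35, RPS3 -0.25, RPL41 -0.18 and RPL3 -0.32 turned. Bortezomib with ISRIB against bortezomib gave 16 lower (background 7.53%) and a median of -0.16, and the ISRIB interaction 8 lower (background 2.25%). Backgrounds with library totals alone, higher and lower, were 11.7% and 49.4% for bortezomib against DMSO. They were 12.5% and 51.4% for bortezomib with nelfinavir against nelfinavir, and 12.1% and 50.4% for bortezomib with ISRIB against ISRIB. Upper-quartile factors gave a median of 0.18 for bortezomib, 23 higher, 2 lower and a median of 0.13 for bortezomib with nelfinavir against nelfinavir, and 9 higher with a median of -0.037 for bortezomib with ISRIB against ISRIB. That last median was -0.0038 with RLE factors and with DESeq2, and -0.0065 with TMM without mitochondrially encoded genes and members. RLE factors gave 0 lower in the nelfinavir interaction (background 9.35%). There edgeR with TMM gave 10 of 78 members at an unadjusted p under 0.05, against 4090 of all 12685 genes. In the same interaction DESeq2 gave 2 higher and 2 lower (backgrounds 11.6% and 10.9%). DESeq2 gave 7 lower for bortezomib with ISRIB against bortezomib (background 7.02%) and 15 lower in the ISRIB interaction (background 3.44%). No filter gave 24 higher for nelfinavir (background 6.22%), and 8 higher (background 17.5%) with a median of -0.019 for bortezomib with ISRIB against ISRIB. It gave 3 higher and 1 lower in the nelfinavir interaction (backgrounds 7.66% and 5.43%) and 1 higher in the ISRIB interaction (background 2.19%). Only the groups compared gave 5 lower for bortezomib (background 29.1%) and 18 higher for bortezomib with nelfinavir against bortezomib (background 11.4%). This setting gave 2 higher and 1 lower in the nelfinavir interaction (backgrounds 10.7% and 9.28%) and 8 lower in the ISRIB interaction (background 2.44%). With the 5 libraries left out there were 6 lower for bortezomib (background 29.3%). Bortezomib with ISRIB against bortezomib had 2 higher and 12 lower (backgrounds 8.26% and 7.47%). Medians were 0.15 and -0.026 for bortezomib with nelfinavir against nelfinavir and bortezomib with ISRIB against ISRIB. There were 5 higher in the nelfinavir interaction (background 10.1%), and 1 higher and 15 lower in the ISRIB interaction (backgrounds 4.34% and 3.61%). Replicate numbers were not used as pairs in the main fit, because the study methods state no pairing. A correlation above 0.1 was found in 10 of the 60 library pairs that share a number and in 7 of the 180 that do not. By mean correlation, 14 of 24 libraries lay closest to those of their own number. Libraries of the same number were thus somewhat more alike, which the main fit leaves out. A replicate block gave 2 higher in the nelfinavir interaction (background 10.2%) and 8 lower in the ISRIB interaction (background 2.19%). Without mitochondrially encoded counts the share of members was 10.1% in DMSO, 10.4% under bortezomib, 10.6% with nelfinavir added to it, 9.57% with ISRIB added to it, 11.4% for nelfinavir alone and 10.7% for ISRIB alone. Leaving out each library in turn, bortezomib against DMSO ranged from 27 to 43 higher, 3 to 5 lower and a median of 0.16 to 0.27. For these refits the shares of all genes called are not given. Nelfinavir ranged from 19 to 38 higher. Bortezomib with nelfinavir against bortezomib ranged in its median from 0.16 to 0.24, and bortezomib with ISRIB against bortezomib from 0 to 1 higher, 1 to 5 lower and a median of -0.12 to -0.049, the last without bortezomib replicate 4. The median of bortezomib with nelfinavir against nelfinavir ranged from 0.16 to 0.24. Bortezomib with ISRIB against ISRIB ranged from 10 to 17 higher, with a median of -0.012 to 0.062. The nelfinavir interaction ranged from 1 to 4 higher, 0 to 3 lower and a median of -0.033 to 0.081, and the ISRIB interaction from 1 to 6 lower. Members with no near copy gave medians within the spread between replicates (0.06) of those of all members in each comparison. The counts of RPL3L, RPL10L, RPL39L and RPL17 do not bear a comparison, and the cause of these low counts was not tested.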
